A study of Mus musculus with 7 samples.

Results

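The dendritic cells of the mammary gland described here are the 226 cells, of 13684 cells in all, that the deposited annotation named dendritic cells. Of these, 205 came from young mice (75 in Young A, 24 in Young B and 106 in Young C) and 21 from aged mice (14 in Aged A, 5 in Aged B, 1 in Aged C and 1 in Aged D). The mice were untreated nulliparous females, taken at diestrus, whose mixed background came from FVB, 129 and C57BL/6J. The 3 young mice were 3 to 4 months old and the 4 aged mice 13 to 14 months old. Their #4 mammary glands, with the lymph nodes removed, were dissociated, and the unsorted cells of each mouse gave 1 single-cell library, in which every mRNA molecule is counted by a unique molecular identifier (UMI).

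Dendritic cells take up proteins in a tissue, cut them into peptides and show these on MHC class II and class I molecules to T cells. Conventional dendritic cells come in 2 main forms: cDC1, which carry Xcr1 and Clec9a, depend on Irf8 and Batf3 and are known for presenting material of dead cells to CD8+ T cells, and cDC2, which carry lectins such as Cd209a, Clec10a and Mgl2 and present mainly to CD4+ T cells. Either form can mature, upon which it takes up less, puts Ccr7 on its surface and moves along lymph vessels to the lymph node, whereas plasmacytoid dendritic cells (pDC) are known as sources of type I interferon.

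The results below turn on genes that divide these cells. Cd209a and Xcr1 were never counted in the same young cell, Il12b stood out in the cells with maturation markers, and Traf1 was both a marker of the whole cell type and higher in those cells. The 250 bases before the start of each of these 4 genes are therefore shown, 5′ to 3′ on the strand of the gene, from RefSeq on GRCm38.p6. Capitals mark matches, on either strand, to the letters GAGGAA, bound by PU.1 (the product of Spi1, a factor of the myeloid lineage), to AANNGAAA, bound by interferon regulatory factors (IRF), or to GGGANTTTC, bound by NF-kappaB.
Cd209a, chr8:3748985-3749234, minus strand: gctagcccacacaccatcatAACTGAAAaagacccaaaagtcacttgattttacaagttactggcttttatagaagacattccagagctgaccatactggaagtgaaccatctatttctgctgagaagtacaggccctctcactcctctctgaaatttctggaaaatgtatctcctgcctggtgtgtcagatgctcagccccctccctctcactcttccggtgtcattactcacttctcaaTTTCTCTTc
Xcr1, chr9:123862030-123862279, minus strand: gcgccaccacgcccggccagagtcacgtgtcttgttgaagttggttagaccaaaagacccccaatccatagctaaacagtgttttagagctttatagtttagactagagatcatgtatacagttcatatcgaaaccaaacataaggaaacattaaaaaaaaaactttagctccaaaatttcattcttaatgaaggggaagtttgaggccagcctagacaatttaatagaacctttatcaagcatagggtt
Il12b, chr11:44399813-44400062, plus strand: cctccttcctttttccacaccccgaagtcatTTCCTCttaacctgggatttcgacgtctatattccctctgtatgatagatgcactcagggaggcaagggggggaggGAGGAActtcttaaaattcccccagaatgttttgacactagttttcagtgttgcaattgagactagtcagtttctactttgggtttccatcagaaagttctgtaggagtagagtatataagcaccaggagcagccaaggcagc
Traf1, chr2:34961773-34962022, minus strand: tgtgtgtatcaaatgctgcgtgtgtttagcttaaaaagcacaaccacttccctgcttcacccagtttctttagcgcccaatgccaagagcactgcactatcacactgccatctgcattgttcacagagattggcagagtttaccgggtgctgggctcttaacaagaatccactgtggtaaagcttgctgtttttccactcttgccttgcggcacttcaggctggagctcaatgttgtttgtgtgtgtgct
The Cd209a window held 2 matches of the IRF letters, at 230 to 223 and 9 to 2 bases before the start, and the Il12b window held 2 matches of the PU.1 letters, at 219 to 214 and 143 to 138 bases before the start. The windows of Xcr1 and Traf1 held no match to the 3 motifs. Of 32851 RefSeq windows of the same length, 23.3% held the PU.1 letters, 21.3% the IRF letters and 0.941% the NF-kappaB letters, so a match describes the sequence and does not show a bound site. Of the other markers used below, Napsa lies on chromosome 7 at 44572380 to 44586862, plus strand, and Flt3 on chromosome 5 at 147330741 to 147400489, minus strand.

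Before the results, some properties of the libraries have to be given. The libraries held 6652599 UMIs (Young B) to 16999625 UMIs (Aged B). The median dendritic cell held 4610, 4307.5 and 4701 UMIs in Young A, B and C, and 5273.5 and 6536 UMIs in Aged A and B. Summed over its dendritic cells, a young mouse gave 110395 to 549243 UMIs, whereas Aged A gave 77772, Aged B 31973, Aged C 4945 and Aged D 6129. Cell barcodes of 202 of the 13684 cells, and of 5 of the 226 dendritic cells, also occurred in another mouse. Doublet calling with Scrublet marked 73 of all cells (0.534%) and 0 dendritic cells. The cell barcodes of young and aged mice were written in different formats, so effects of age and of how the libraries were processed cannot be told apart. Levels are given as CPM, the count of a gene scaled to the summed UMIs of the dendritic cells of a mouse (or of another named type), and intervals and limits cover counting error only.

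Dendritic cells were a larger share of the cells in young than in aged glands. Of all cells they made up 3.34%, 1.90% and 3.70% in Young A, B and C and 0.850%, 0.182%, 0.0730% and 0.0646% in Aged A, B, C and D, so every young mouse lay above every aged mouse. The means were 2.98% ± 0.954 (SD, n = 3) and 0.292% ± 0.375 (SD, n = 4), a 10.2-fold difference (exact two-sided permutation test, p = 0.0286, the smallest that 3 against 4 mice allow, and 0.0857 after Benjamini-Hochberg adjustment over 3 denominators). Without Aged A the aged mean was 0.107% ± 0.0655 (SD, n = 3) and the difference 28.0-fold. Stromal cells of all types were 1334 of 2243 cells in Young A, 705 of 1264 in Young B and 1430 of 2865 in Young C. In Aged A, B, C and D they were 358 of 1648, 412 of 2746, 243 of 1370 and 301 of 1548 cells. The folds over all cells therefore include the lower share of stromal cells in the aged mice. Among stromal cells the share was 5.62%, 3.40% and 7.41% in the young and 3.91%, 1.21%, 0.412% and 0.332% in the aged mice, where Aged A lay above Young B (5.48% ± 2.01 against 1.47% ± 1.68, 3.74-fold, exact permutation test, p = 0.0857, adjusted 0.114). Among immune cells it was 34.4%, 33.8% and 50.7% in the young mice and 35%, 14.3%, 10% and 9.09% in the aged mice (39.6% ± 9.60 against 17.1% ± 12.2, 2.32-fold, exact permutation test, p = 0.114, adjusted 0.114). Aged A again fell among the young values. The immune share of the aged mice rests on 10 to 40 immune cells per mouse, and that of Aged C and Aged D on 1 dendritic cell each.

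**Figure D1:**
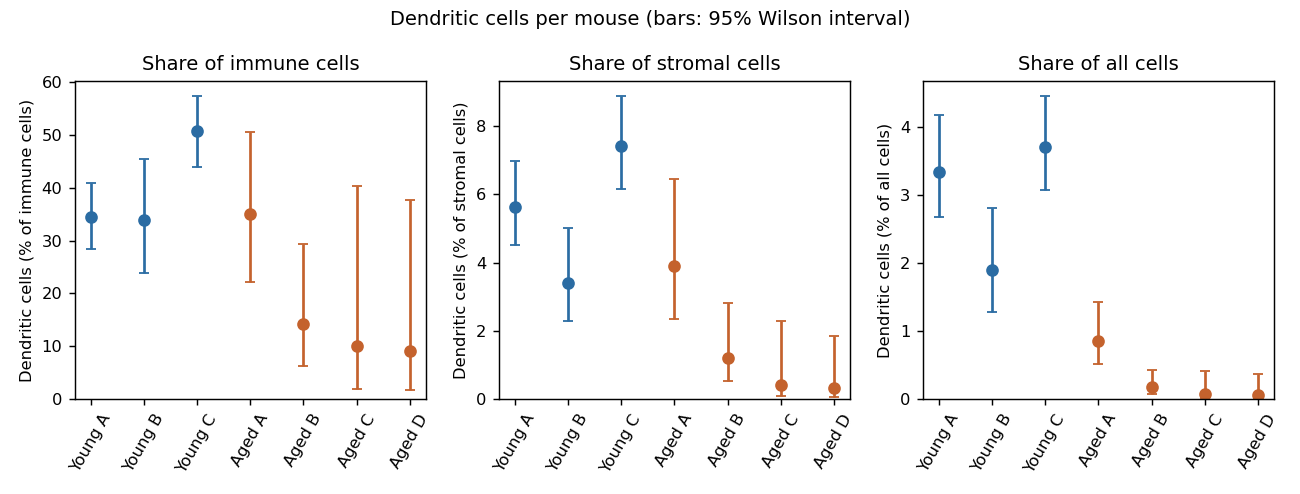
Dendritic cells of each mouse as a percentage (vertical axes) of its immune, stromal and all cells, with 95% Wilson intervals as bars. Of all cells, the 3 young mice lie between 1.90% and 3.70% and the 4 aged mice between 0.0646% and 0.850%, while Aged A overlaps the young mice in the other panels.

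The number of dendritic cells for each Mb macrophage, another myeloid type, was 0.833, 1.50 and 5.89 in Young A, B and C and 1.56, 0.833, 0.250 and 0.333 in Aged A, B, C and D. Young A held 90 Mb macrophages and Young C 18. Ma macrophages numbered 40, 20 and 61 in Young A, B and C and 1, 0, 0 and 0 in Aged A, B, C and D.

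The label was checked first against the genes that the study used for it. Napsa, an aspartic protease of the endosomal pathway, was at 406, 290 and 313 CPM in the dendritic cells of Young A, B and C (336 ± 61.2, SD, n = 3). The next highest cell type was the Mb macrophage, at 89.1 CPM. A Napsa UMI was found in 142 of 205 young dendritic cells (69.3%) and in 0.167% of fibroblasts, a type that should lack it and whose median cell held 4411 UMIs. Traf1, an adaptor of TNF receptor signalling, was at 210, 308 and 233 CPM (250 ± 51.4), against 107 CPM in T and B cells, and was found in 115 cells (56.1%; fibroblasts 1.28%). Cd209a, a lectin of the DC-SIGN family, was at 492, 589 and 213 CPM (431 ± 195), against 91.1 CPM in Ma macrophages, and was found in 69 cells (33.7%; fibroblasts 0.111%). Young C stood below the other young mice in this gene. Flt3, the receptor for the growth factor on which dendritic cells depend, was at 40.3, 54.4 and 23.7 CPM (39.4 ± 15.4) and was found in 30 cells (14.6%) and in no fibroblast, and the next highest type had 0.908 CPM. These genes helped to name the cells, so their levels are a description.

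**Figure D2:**
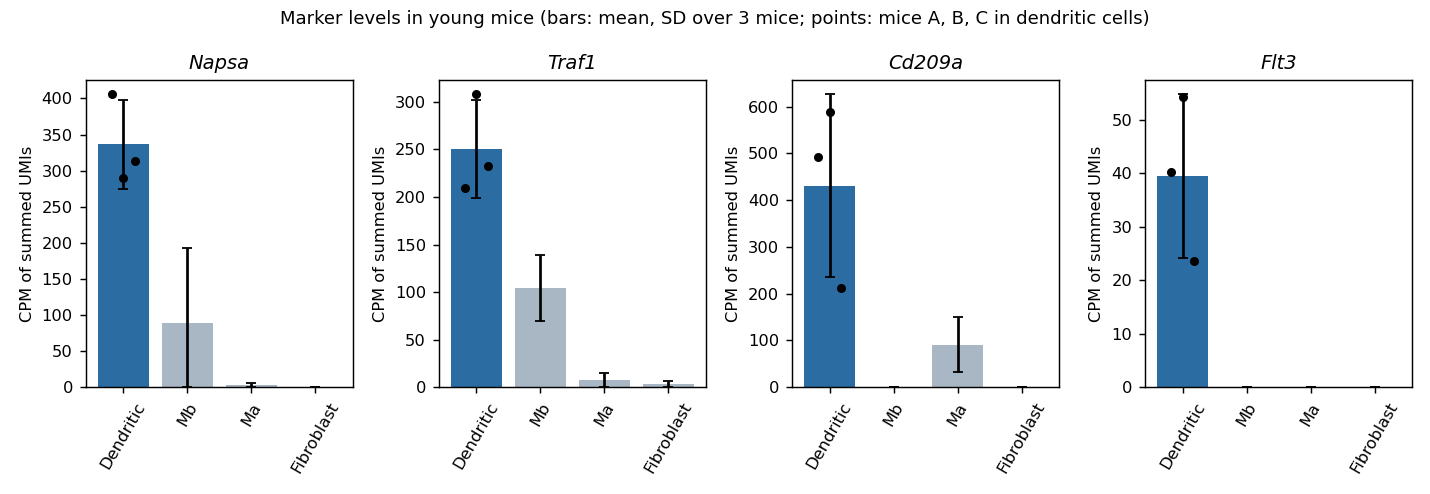
Level of Napsa, Traf1, Cd209a and Flt3 (CPM of summed UMIs, vertical axes) in the dendritic cells, Mb and Ma macrophages and fibroblasts of the 3 young mice, as mean (bar) and SD (line, cut at 0), with points for Young A, B and C in dendritic cells. Dendritic cells have the highest bar in each panel, Mb macrophages follow in Napsa and Traf1 (89.1 CPM for Napsa) and Ma macrophages in Cd209a (91.1 CPM).

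The 4 markers did not mark the same cells. Of the 205 young dendritic cells, 31 held a UMI of none of them, 51 of 1, 74 of 2, 39 of 3 and 10 of all 4. Napsa was found in 60 of the 69 cells with Cd209a and in 24 of the 30 cells with Flt3. By the share of cells with a UMI, Napsa was most like Tnip3 (66.8%), Traf1 like Pmaip1 (49.8%), Cd209a like Tnfsf9 (34.1%) and Flt3 like Gm15987 (13.2%), out of the 20 genes that ranked highest for dendritic cells. Only 3 cells held both Flt3 and Gm15987, so a like share did not mean the same cells.

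Other genes of the lineage went with the label to differing degrees. Of 1954 genes at 50 CPM or more in young dendritic cells, 190 were highest in them among the annotated types. Of these, Siglecg, an inhibitory lectin best known from B cells, had the largest ratio to the next type, at 80.6, 27.2 and 47.3 CPM in the 3 young mice against a mean of 0.642 CPM in Mb macrophages. Ccl17, a chemokine that draws T cells, was at 64.5, 45.3 and 122 CPM against 3.37 CPM in Ma macrophages, and Adam8, a membrane protease, at 32.2, 109 and 122 CPM against 7.94 CPM. Lyz1, a lysozyme, was at 137, 553 and 1203.5 CPM, 14.2-fold above the next type on average, and Young A stood low in it. The genes of antigen presentation H2-DMb2 and H2-Ob exceeded it 8.37-fold and 4.58-fold, and Wdfy4, which cDC1 need for cross-presentation, 3.63-fold. Lyz1 and Ear2, an eosinophil-type ribonuclease that ranked among the same genes, have near-identical relatives in the genome, so reads could be split between copies in the counting.
Cst3, which encodes cystatin C and is abundant in dendritic cells, was at 15329, 11948 and 12730 CPM, above the Mb macrophages, and Zbtb46, a factor of conventional dendritic cells, was found in 19 cells. Irf8 was found in 72 cells and Batf3 in 76 cells, at mean levels of 271 ± 91.1 and 90.9 ± 55.2 CPM, and Irf4, a factor of cDC2, in 26 cells. Itgax, which encodes CD11c and is often used to sort dendritic cells, was lower in dendritic cells (30.4 ± 18.5 CPM, 31 cells) than in Mb macrophages (95.3 CPM). Among the chains of MHC class II, Cd74, H2-Aa, H2-Ab1 and H2-Eb1 had a UMI in 202 to 204 of the 205 cells. Their levels were lower than in Mb macrophages and above those in Ma macrophages, for example 11386 ± 786 CPM of H2-Aa in dendritic cells, 15271 in Mb and 3042 in Ma macrophages.

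Markers of other cell types were present to differing degrees. The summed level of the macrophage list (12 genes, C1qa, Apoe and Adgre1 among them) was 758, 335 and 1116 CPM in the dendritic cells of Young A, B and C, against 35156 to 47804 CPM in their Mb and 33035 to 36725 CPM in their Ma macrophages. Of the list, Mertk had no UMI and Fcgr1 was found in 1 cell, whereas Apoe was found in 54. The summed level of the monocyte list (6 genes) was higher in dendritic cells, at 760, 1087 and 901 CPM, than in Mb (26.1 to 59.7 CPM) and Ma macrophages (259 to 313 CPM). It was higher still in fibroblasts (1987, 2657 and 2277 CPM), and NK cells had 1118, 929 and 1027 CPM. Ccr2, the receptor by which monocytes and their offspring leave the marrow, accounted for 149 ± 51.2 CPM and was found in 81 dendritic cells (39.5%; fibroblasts 0.111%). The neutrophil and mast cell lists each had a UMI of a gene in 1 young cell, the B cell list had UMIs of 2 genes in 0 cells, the T cell list in 5 and the NK cell list in 3. UMIs of 2 or more epithelial genes were found in 81 young dendritic cells and of 2 or more fibroblast genes in 25, and the summed fibroblast list was 1346, 45.3 and 375 CPM in Young A, B and C. In the same order the summed epithelial list was 647, 254 and 960 CPM and the endothelial cell list 760, 598 and 279 CPM. Krt18 and Dcn, of the epithelial and fibroblast lists, also had UMIs in both macrophage types, and the part of these genes in the results was not tested.

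To describe the known dendritic subsets, each young cell was asked for UMIs of at least 2 genes of a marker list. For cDC1 (Xcr1, Clec9a, Cadm1, Wdfy4, Tlr3, Snx22 and Gcsam) 40 of 205 cells met this, 15 of 75 in Young A, 5 of 24 in Young B and 20 of 106 in Young C, and the shares of 20%, 20.8% and 18.9% lay close together (19.9% ± 0.986, SD, n = 3). For cDC2 (Cd209a, Clec10a, Mgl2, Sirpa and Clec4a4) 62 cells met it, with shares of 42.7%, 29.2% and 21.7% (31.2% ± 10.6). For maturation (Ccr7, Fscn1, Ccl22, Cacnb3, Nudt17 and Il4i1) 29 cells met it, with shares of 6.67%, 8.33% and 20.8% (11.9% ± 7.70), and Young C held 22 of them. For pDC (Siglech, Ccr9, Ly6d, Klk1, Cox6a2 and Pacsin1) 1 cell met it, in Young B (mean share 1.39%). In Young C 0 of 106 cells met it, although 37 of them held a UMI of 1 list gene, and 0 of 106 allows a share of up to 2.83% of cells with such UMIs, which does not limit the share of pDC. Siglech, the defining gene of that list, was found in 3 cells, and Ly6d, found in 50, was also found in 18.5% of fibroblasts and is abundant in luminal cells.
The lists do not mark dendritic cells alone. The summed cDC2 marker list was lower in all dendritic cells (806, 797 and 377 CPM in Young A, B and C) than in Ma macrophages (1422, 1878 and 950 CPM), and of its 5 genes Cd209a alone was above both macrophage types. The summed cDC1 marker list was at 226, 236 and 182 CPM in dendritic cells and at 179, 300 and 291 CPM in Mb macrophages.
The cDC1 and cDC2 lists did not share a cell, while 5 cDC1-marker and 7 cDC2-marker cells also met the maturation list. Cd209a (69 cells) was found together with Xcr1 (20 cells) in 0 cells and with Clec9a (27 cells) in 0 cells, whereas 12 cells held both Xcr1 and Clec9a. Ccr7, the receptor that leads dendritic cells to the lymph node, was found in 48 cells and Ccl22, a T cell chemokine, in 39, with 22 cells in common. Ccr7 was also found in 26 of the 69 cells with Cd209a and in 2 of the 20 with Xcr1. The median cell held 5540 UMIs among cDC1-marker, 4589 among cDC2-marker and 4744 among mature-marker cells, and a list met by more UMIs is easier to meet. The shares depend on the requirement: they were 8.46% for cDC1, 19.3% for cDC2 and 5.92% for maturation after each cell was thinned to 2000 UMIs.

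**Figure D3:**
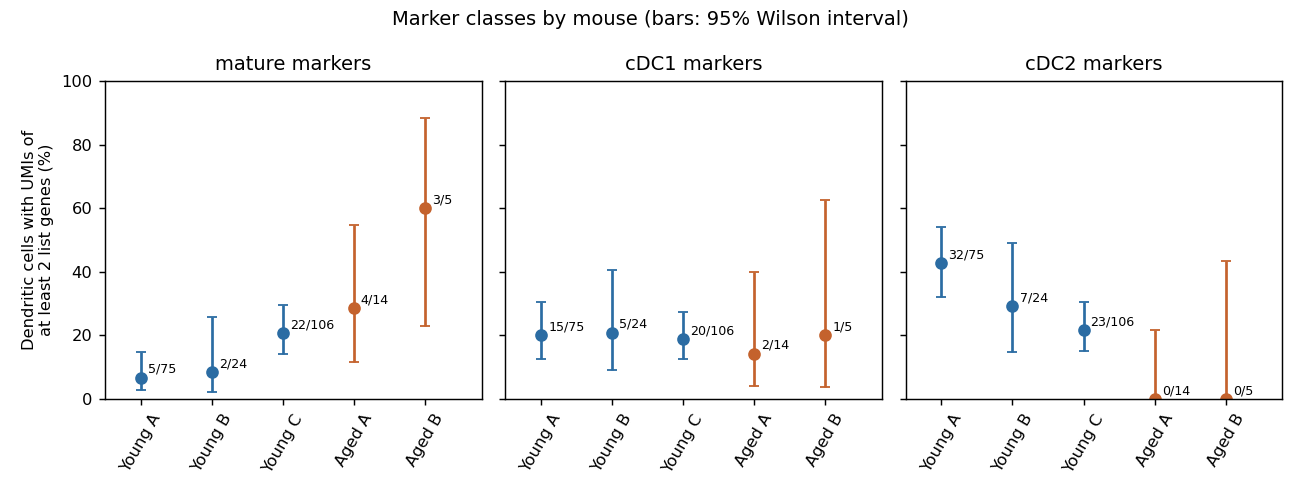
Percentage of the dendritic cells of a mouse (vertical axis) with UMIs of at least 2 genes of the mature, cDC1 and cDC2 lists, with 95% Wilson intervals as bars and the numbers of cells beside the points, for the mice with at least 5 dendritic cells. The cDC1 share is 18.9% to 20.8% in the young mice, the cDC2 share is 42.7%, 29.2% and 21.7% in Young A, B and C, and neither Aged A nor Aged B holds a cDC2-marker cell.

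The cDC1-marker and cDC2-marker cells of the same 3 young mice differed in more genes than their lists. Of 1383 genes tested outside the lists, 41 were higher (2.96%) and 94 lower (6.80%) in cDC1-marker cells, at an adjusted p under 0.05 and at least 2-fold (edgeR quasi-likelihood test with the mouse as a block, 6 summed samples with 2 residual degrees of freedom). The unadjusted p was under 0.05 for 341 genes. Irf8 was at 982, 844 and 550 CPM in the cDC1-marker cells of Young A, B and C and at 12.6, 0 and 43.0 CPM in their cDC2-marker cells. The groups did not overlap (log2 fold change 4.99, SE 0.46, adjusted p = 3.37e-05 by edgeR). Of 11 further cDC1 genes 7 passed the filter on low counts, which a gene can pass through the group where it is high, and these 7 (Rab7b, Ifi205, Ppt1, Naaa, Cd24a, Irf8 and Id2) were called higher. Ppt1, a lysosomal thioesterase, was at 861, 281 and 533 CPM against 50.3, 33.7 and 77.3 CPM (log2 fold change 3.41), and Naaa, a lysosomal amidase, at 643, 527 and 284 against 69.2, 33.7 and 51.6 CPM (3.00). Id2, another of these 7 genes, was at 861, 668 and 936 CPM against 258, 33.7 and 498 CPM (1.52). Also higher in cDC1-marker cells were Ncoa7, Sept6, Cxx1a, Txndc15, the chemokine Ccl22 and the histone gene Hist1h2ap, by 2.24 to 3.36 on the log2 scale. Ccl22 is a gene of the maturation list and was at 48.5, 105 and 318 CPM in the cDC1-marker cells of Young A, B and C. The 5 cDC1-marker cells that also met that list all came from Young C. Ccr7, the other tested gene of that list, was lower in cDC1-marker cells and did not pass (log2 fold change −1.62, adjusted p = 0.161 by edgeR). Of 12 cycling genes 3 could be tested, and Stmn1, a microtubule regulator, rose (643, 738 and 610 against 220, 169 and 51.6 CPM). A UMI of Mki67 or Top2a was found in 13 of 40 cDC1-marker cells (32.5%), 5 of 62 cDC2-marker cells (8.07%) and 5 of 29 mature-marker cells (17.2%). The same held for 18 of the 86 young cells that met none of these lists (20.9%), with cells pooled over the mice. Mki67 by itself was found in 27 of the 205 young dendritic cells and in 0.278% of fibroblasts, and the part of depth per cell in these shares was not tested.
Some genes of the cDC2-marker cells were at 0 in the cDC1-marker cells of every young mouse. Such genes passed the filter on low counts through the cDC2-marker cells alone. Tmem176b, a membrane channel of myeloid cells, was at 604, 540 and 455 CPM in cDC2-marker cells and at 0 in the others, at least 40.4-fold higher over a limit of 3 counts in the summed cDC1-marker cells. On the same footing Cd7 was at least 16.5-fold, Capg, a capping protein of actin, at least 12.7-fold and Cd209d, a lectin of the same family as Cd209a, at least 9.89-fold higher. Ccl9, a chemokine, was at 831, 607 and 730 CPM against 0, 0 and 17.2 CPM, and Wfdc17 at 793, 574 and 704 against 12.1, 0 and 34.4 CPM. Tmem176a, Pltp, Mcemp1 and the interferon-stimulated Isg15 were also higher in cDC2-marker cells, by 4.45 to 4.90 on the log2 scale. Fcer1g, the common chain of Fc receptors, was at 1397, 1822 and 1882 CPM against 388, 352 and 430 CPM. Of 12 tested transcription factors Irf8 and Id2 were higher in cDC1-marker cells, and Zeb2, Batf and Tcf4 in cDC2-marker cells (Zeb2: 170, 270 and 206 against 12.1, 0 and 25.8 CPM). Of 12 tested MHC class II genes Ctss, Ifi30, Lgmn and H2-DMb2, which cut or load peptides, were higher in cDC2-marker cells and none in cDC1-marker cells. None of 3 tested further cDC2 genes passed the test.
Genes of other cell types moved with this difference. All 4 tested macrophage genes (C1qa, C1qb, C1qc and Apoe) were called lower in cDC1-marker cells. In Young B, however, all 4 were at 0 in cDC2-marker cells, and Apoe (246 against 0 CPM) and C1qb (35.2 against 0 CPM) ran the other way there. UMIs of 2 or more macrophage genes were held by 14 of 62 cDC2-marker and 5 of 40 cDC1-marker cells. Krt8, Krt18, Col3a1, Dcn and Fabp4, genes of epithelial cells, fibroblasts and endothelium, were also called lower in cDC1-marker cells. In Young B, however, Krt8 ran the other way (70.3 against 33.7 CPM), and Col3a1 and Dcn were at 0 in both groups. UMIs of 2 or more epithelial genes were held by 29 cDC2-marker and 12 cDC1-marker cells. Without the cells that held 2 or more macrophage genes 117 genes were called, 102 of them among the 141 called with all cells and with the list genes counted. Ncoa7 and Txndc15 were then not called, although their log2 fold changes were 3.60 (adjusted p = 0.0860 by edgeR) and 2.46 (adjusted p = 0.109), against 3.36 and 2.33 with all cells, and Hist1h2ap, Cd209d and Pltp were too low to be tested.

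Mature-marker cells were compared with the other dendritic cells of the same mouse in Young A (5 mature-marker cells) and Young C (22), the young mice with at least 3 such cells. Of 2314 genes outside the list 30 were higher (1.30%) and 22 lower (0.951%) in mature-marker cells (edgeR quasi-likelihood test with the mouse as a block, adjusted p under 0.05 and at least 2-fold), and 168 had an unadjusted p under 0.05. This fit has 4 summed samples and 1 residual degree of freedom, so its error is taken from the other genes. Il12b, the p40 chain of IL-12 and IL-23 that drives T cell responses, was at 124 CPM in mature-marker and 0 in other cells of Young A, and at 574 against 6.99 CPM in Young C (log2 fold change 6.50, adjusted p = 1.79e-12 by edgeR). The mature-marker sum of Young A held only 24155 UMIs, so few counts lie behind its 124 CPM. In the dendritic cells of Young B Il12b had no UMI. It was found in 9 young dendritic cells, 8 of which also held Ccr7, and 5 of the 9 were cDC1-marker cells and 0 were cDC2-marker cells. Its partner chains Il12a and Il23a had no UMI in young dendritic cells. Ccl5, a chemokine for T cells, was at 13579 against 37.3 CPM in Young A and 2444 against 182 CPM in Young C (5.88, adjusted p = 1.60e-16 by edgeR), and it was found in 11 of the 29 cells. Samsn1, an adaptor of lymphocytes, was at 911 against 94.8 and 657 against 191 CPM (2.44). Traf1 was at 869 against 164 CPM in Young A and 507 against 156 CPM in Young C (2.04, adjusted p = 0.00148 by edgeR).
Of 33 further genes of maturation 24 were tested, and 7 rose and 0 fell. A gene could enter this count through 1 group alone, by the filter on low counts. Besides Il12b, Ccl5, Samsn1 and Traf1 these were Marcksl1, Tbc1d4 and Ccl17, of which Ccl17 was at 466 against 25.6 CPM in Young C and at 0 against 69.0 CPM in Young A. Costimulatory genes on that list did not pass: Cd40 had a log2 fold change of 2.24 (adjusted p = 0.153 by edgeR) and Cd86 of 0.67, and Cd83, found in 177 of the 205 young cells, of 0.48. None of 12 tested MHC class II genes passed (H2-Aa: 13910.2 against 10859.7 CPM in Young A and 12919 against 10229.5 CPM in Young C). Serpinb6b and Serpinb9, inhibitors of granule proteases, rose by 3.28 and 2.74 on the log2 scale, and Epsti1, Dok1, Nudt9, Pou2f2 and Myo1g by 2.47 to 3.11. Ifi205, an interferon-induced gene that is also a cDC1 gene, rose by 2.12.
Several genes had few or no UMIs in the mature-marker cells. Those at 0 there passed the filter on low counts through the other cells alone. Fn1, which encodes fibronectin, was at 0 in both mice against 155 and 518 CPM in the other cells, at least 16.2-fold lower. C1qb was at least 11.02-fold, Fcrls at least 6.93-fold, Pltp at least 5.88-fold and Fcgr3, an Fc receptor, at least 4.20-fold lower. Retnla, a secreted product of alternatively activated myeloid cells, was at 0 against 2028 CPM in Young A and 366 against 10395 CPM in Young C, and Cxcl2, a chemokine for neutrophils, at 0 against 566 and 16.6 against 2010 CPM. Lyz1, Apoe and C1qa fell by 6.42, 5.19 and 4.02 on the log2 scale. Low levels of Fn1, Retnla and C1qa were not particular to mature-marker cells. In the cDC1-marker cells of Young A, B and C, Fn1 was at 0, 35.2 and 8.59 CPM and Retnla at 0, 35.2 and 34.4 CPM. C1qa was at 0 in all of them. The other cells of the 3 young mice included 86 that met none of the lists, described below. Batf3 was at 0 against 132 CPM in Young A and 16.6 against 152 CPM in Young C, and Fos, an immediate early gene, at 207 against 1594 and 258 against 958 CPM. All 4 tested macrophage genes and 1 of 4 tested monocyte genes (Fn1) were lower, and UMIs of 2 or more macrophage genes were held by 2 of the 29 mature-marker and 50 of the other 176 cells. Without the cells with macrophage genes 49 genes were called, 41 of them among the 55 called with all cells and with the list genes counted, and Apoe was not called (log2 fold change −3.49, adjusted p = 0.176 by edgeR). C1qa, C1qb, Fcrls, Pltp, Fcgr3 and Lyz1 were then too low to be tested. UMIs of 2 or more T or NK cell genes were held by 1 mature-marker cell in Young B and 1 in Young C, and without all such cells 57 genes were called.

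The remaining 86 young cells met none of the cDC1, cDC2 and maturation lists. They were 26 cells of Young A, 11 of Young B and 49 of Young C, and their median cell held 4408 UMIs. Retnla was at 5292, 5367 and 14110 CPM in them, against means of 23.2 CPM in cDC1-marker and 122 CPM in mature-marker cells. In cDC2-marker cells it was at 466, 0 and 8351 CPM, so that Young C carried most of their level. Lyz1 (1343 CPM on average), Ear2 (320 CPM) and Fn1 (480 CPM, in 45 cells) had their highest mean level there as well. Of the 86 cells 14 held 2 or more macrophage genes and fewer than 2 monocyte genes, 19 the reverse, 19 both and 34 neither. Napsa was found in 52 of them and Ccr2 in 41. Irf8 was at 410, 21.9 and 96.2 CPM and Batf3 at 234, 21.9 and 180 CPM, with Young B low in both. Whether these cells are dendritic cells with few UMIs of the listed genes or another myeloid type was not tested.

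**Figure D4:**
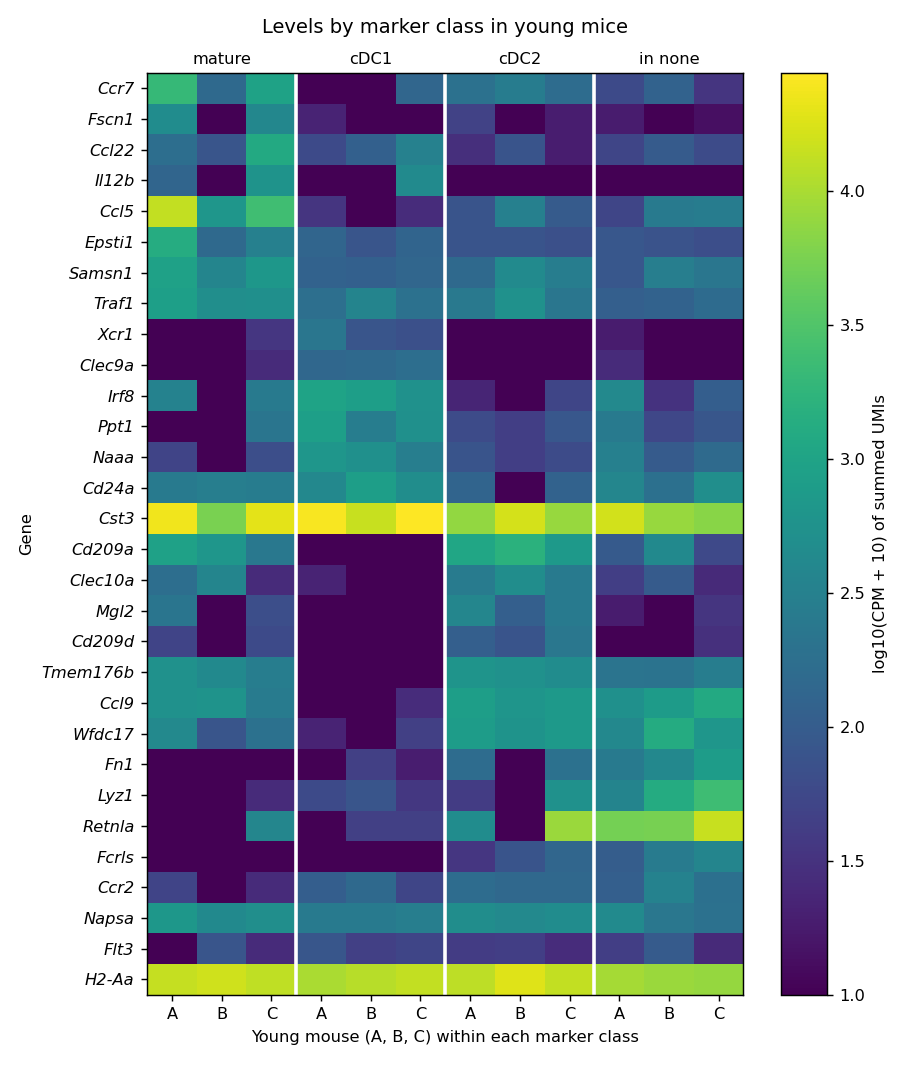
Level of 30 genes (rows) as log10 of CPM plus 10 (colour scale) in the mature-marker, cDC1-marker, cDC2-marker and remaining dendritic cells of Young A, B and C (columns). Irf8, Ppt1 and Naaa are bright in the cDC1 columns (Irf8 550 to 982 CPM) and dark in the cDC2 columns, Tmem176b and Ccl9 the reverse, and Retnla is brightest in the remaining cells of Young C (14110 CPM).

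Secreted and sensing genes were spread unevenly over the young dendritic cells. Il1b, the inflammatory cytokine, was found in 131 of the 205 cells at 742, 1794 and 1029 CPM (1188 ± 544), below the Mb macrophages (3681 CPM). Tnf was found in 46 cells and Tnfsf9, the ligand of the T cell receptor 4-1BB, in 70, while Csf2 had no UMI. Of the receptors that sense microbes, Tlr7 had no UMI, Tlr9 was found in 1 cell and Tlr2 in 24, and Cd14, a partner of Tlr4, in 98. Alox5ap, needed to make leukotrienes, was found in 192 cells at 809 ± 85.4 CPM, above the Ma macrophages (451 CPM), although Alox5 itself was found in only 15. Csf2ra, a chain of the GM-CSF receptor, was found in 107 cells and Csf1r, the macrophage growth factor receptor, in 32.

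With age the 21 aged dendritic cells lacked some genes of the young ones. Cd209a was found in 69 of 205 young cells and in 0 of 21 aged cells. Pooled over 14, 5, 1 and 1 cells of the aged mice, this allows a share of up to 14.3% of cells with a UMI, which does not limit the share of cells that express the gene. Of the 21, 0 met the cDC2 list, 3 met the cDC1 list (2 in Aged A and 1 in Aged B) and 8 met the maturation list (4 of 14 in Aged A, 3 of 5 in Aged B, 0 of 1 in Aged C and 1 of 1 in Aged D). The Wilson interval of the maturation share is 11.7% to 54.7% in Aged A and 23.1% to 88.2% in Aged B, and 14.1% to 29.4% in Young C.
Levels were compared between the 3 young mice and Aged A and B, the aged mice with at least 3 dendritic cells. Of 1360 genes tested 33 were higher (2.43%) and 18 lower (1.32%) in aged mice (edgeR quasi-likelihood test, adjusted p under 0.05 and at least 1.5-fold, 3 residual degrees of freedom), and 304 had an unadjusted p under 0.05. Without Young B the count was 5, without Young A 27, without Aged A 18 and without Aged B 26. Retnla was at 1897, 2228 and 8199 CPM in the young mice and at 0 in both aged mice, at least 150-fold lower. Cd209a was at least 15.8-fold and Clec4b1, another lectin, at least 7.23-fold lower. C1qb was at least 6.15-fold lower, Fcgr2b, the inhibitory Fc receptor, at least 4.31-fold and Anapc5 at least 3.75-fold. Each of these genes, Retnla included, had no UMI in Aged A and B and so passed the filter on low counts through the young mice. H2-Eb1, the beta chain of the MHC class II molecule I-E, was at 8256, 8207 and 8231 CPM in the young and 193 and 375 CPM in the aged mice (log2 fold change −4.95, SE 0.23, adjusted p = 9.18e-06 by edgeR). In Mb macrophages it was at 11102 to 14246 CPM in the young and 200 to 387 CPM in the aged mice. The mice were of mixed background and their genotypes at this gene are not given. The part of genotype in this difference was not tested. The chains of I-A and the invariant chain did not pass the test (H2-Aa 0.43, adjusted p = 0.177, and Cd74 −0.48, adjusted p = 0.0991, by edgeR), and of 11 tested MHC class II genes H2-Eb1 alone did. Ccdc109b, Ifi27l2a and Sepp1 fell by 3.83, 2.70 and 2.58 on the log2 scale.
Traf1 was at 210, 308 and 233 CPM in the young mice and 591 and 688 CPM in Aged A and B (log2 fold change 1.40, adjusted p = 0.0389 by edgeR), and these mice did not overlap by age. Aged C and D, with 1 dendritic cell each and outside the test, were at 202 and 163 CPM, below the young mice. Of the 33 further maturation genes 18 were tested, and 2 rose, Traf1 and Cxcl16, a chemokine and scavenger receptor (344, 371 and 437 against 1569 and 1157 CPM). Ccr7 was at 199, 127 and 237 CPM in the young and 476 and 438 CPM in the aged mice and did not pass (1.28, adjusted p = 0.0766 by edgeR), nor did Il12b (2.59, adjusted p = 0.184). Id2 rose by 1.45 and Runx3 by 1.60 on the log2 scale. Mir155hg, the host gene of a microRNA of activated immune cells, was at 16.1, 9.06 and 16.4 CPM against 129 and 93.8 CPM, and Ramp3, Mmd, Txnrd1, Ptp4a1, Rbm7 and Ninj1 rose by 2.29 to 2.97 on the log2 scale. Of 15 uptake lectins and Fc receptors 5 were tested, and Cd209a, Fcgr2b and Fcer1g were called lower. Cd209a and Fcgr2b had no UMI in Aged A and B and so passed the filter through the young mice. Some summed lists of other cell types were lower in the same aged cells: the macrophage list was at 758, 335 and 1116 CPM in the young mice and 386 and 0 CPM in Aged A and B, the fibroblast list at 1346, 45.3 and 375 against 12.9 and 0 CPM, and the endothelial cell list at 760, 598 and 279 against 77.1 and 0 CPM. Not every list went this way. UMIs of 2 or more epithelial genes were held by 14 of the 21 aged and 81 of the 205 young cells. For the Langerhans cell genes Cd207, Epcam and Mfge8, 5 aged and 5 young cells held UMIs of 2 or more. These genes do not mark Langerhans cells alone: Epcam is also on the epithelial list, and the paper used Mfge8 as a marker of alveolar cells. In young mice 0 of the 3 genes were highest in dendritic cells, and 0 were above both macrophage types. The part of all these lists in the differences with age was not tested.
Part of these differences was also found in other cells. Of the 20 genes named from the age fit, 10 did not overlap between the ages in fibroblasts either, in the same direction. No share over all genes was computed for this count. Ptp4a1 (283 ± 57.3 against 693 ± 269 CPM, SD, n = 3 and 4), Ramp3, Ninj1, Ccdc109b and Ifi27l2a were among the 10. Gm10260 was at 2.69, 9.06 and 3.64 CPM in young and 2546 and 2940 CPM in aged dendritic cells, and at 6.61 ± 1.43 (SD, n = 3) against 1842 ± 528 CPM (SD, n = 4) in fibroblasts. Rps18-ps3, a pseudogene whose reads could be shared with its parent, and Gm10116 rose by 3.06 and 2.27 on the log2 scale. In fibroblasts H2-Eb1 was at 37.3 ± 21.8 (SD, n = 3) in young and 4.15 ± 4.11 CPM (SD, n = 4) in aged mice, and Retnla at 53.8 ± 30.7 against 0.431 ± 0.862 CPM, without a test. Traf1 was at 64.7 to 131 CPM in young and 82.0 to 194 CPM in aged Mb macrophages, which overlap.

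**Figure D5:**
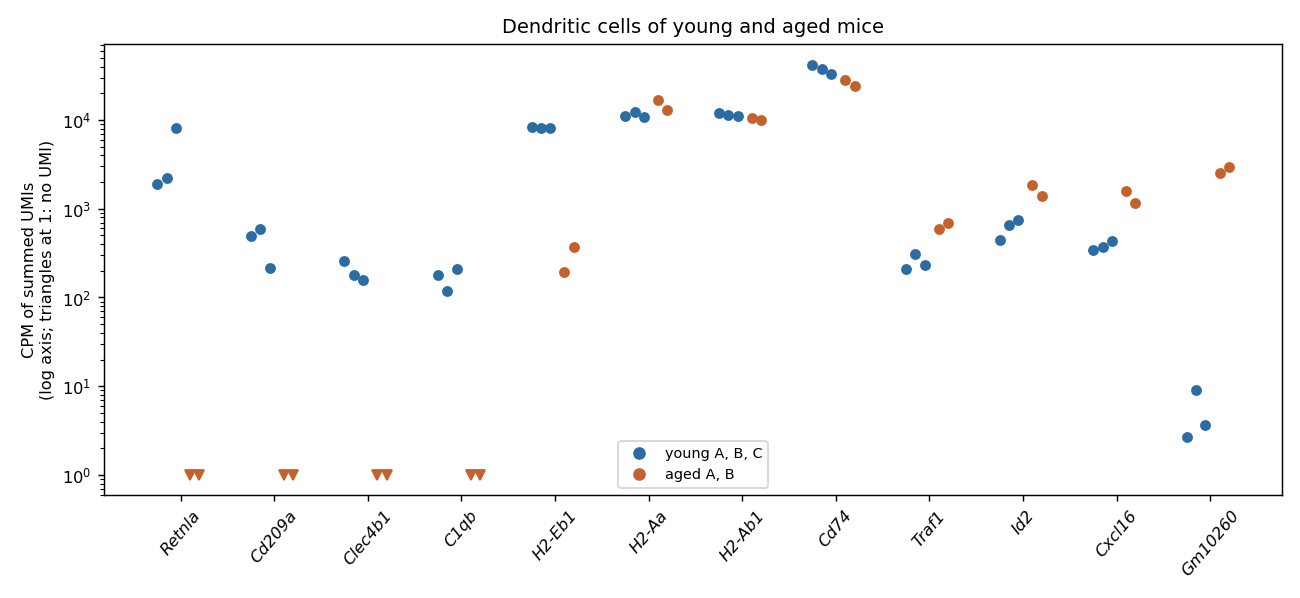
Level of 12 genes (horizontal axis) in CPM of summed UMIs (logarithmic vertical axis, triangles at 1 for no UMI) in the dendritic cells of Young A, B and C and Aged A and B. Retnla, Cd209a, Clec4b1 and C1qb have no UMI in the aged mice, H2-Eb1 lies near 8231 CPM in the young and at 193 and 375 CPM in the aged mice, and H2-Aa, H2-Ab1 and Cd74 lie far above 1000 CPM at both ages.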

How the data were processed

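The authors aligned the reads of the 10x 3′ v2 libraries to mm10 with Cell Ranger 2.0, filtered the cells, named cell types from Seurat clusters and deposited raw UMI counts and the name of each cell. The counts were used as deposited. The dendritic cells, the marker lists and the comparisons were chosen with earlier results of these data known. Replicates were separate mice, and an equal letter at both ages does not mark the same mouse.

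Counts were summed per mouse and group of cells, with at least 3 cells per sum, and genes with low sums were removed by filterByExpr. TMM factors and the quasi-likelihood test of edgeR 4.0.16 were used (with limma 3.58.1 in R 4.3.3). A call needed 1.5-fold (age) or 2-fold (marker classes, with the mouse as a block, since both sums come from the same mouse), with a Benjamini-Hochberg adjusted p under 0.05. Genes of the lists that chose the cells were left out of the results. A fold against a group without UMIs was computed against 3 counts over the group. Shares were compared by an exact two-sided permutation test over 35 divisions of the mice. Genes named are those of the lists, the 20 with the highest ratio to the next cell type (at least 50 CPM) and, for each fit, up to 10 called genes in each direction that changed most and went the same way in every mouse or did not overlap between ages. Alternatives comprised DESeq2 1.42.0, RLE factors, no filter, no fold minimum, equal totals, leaving out single mice and thinning to 2000 UMIs. Simulated data were used to test the scripts. Promoters came from a RefSeq table and positions from GENCODE vM21, both on GRCm38. The symbols of 3 list genes were not in the table of counts. Scrublet was run in scanpy 1.11.5 at an expected rate of 0.06, under Python 3.11.15 with scipy 1.17.1, numpy 2.4.6 and pandas 2.3.3, and figures were drawn in matplotlib 3.10.9.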

Additional observations from a re-analysis of the deposited data

Results flagged for a closer look

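The share of dendritic cells among all cells of the aged mice held 1 mouse far from the others. Aged A was at 0.850%, while Aged B, C and D were at 0.182%, 0.0730% and 0.0646%, and the gap from Aged A to the next mouse was 0.850 of the whole range, above Dixon's 95% critical value for 4 mice. Chance alone flags about 1 in 20 such groups. The same gap was 0.799 among immune and 0.754 among stromal cells and stayed under that value. Without Aged A the mean of the aged mice was 0.107% and the young mean 28.0-fold higher, against 0.292% and 10.2-fold with it, and the difference between the ages in the share of all cells was 2.87 percentage points, against 2.69 with it.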

How the results depend on the processing

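Of 67 alternatives other than leaving out a mouse, 44 kept the direction and the side of the threshold or stayed within 1 SD between mice (counts within 1.5 times), 21 moved a value or count and 0 reversed a direction. The other 2 took the unadjusted p for the share of all cells from under 0.05 to above it. That share had not passed after adjustment (adjusted p = 0.0857, exact permutation test). The difference in the share of all cells (young minus aged) was 2.66 as a log-odds with 0.5 cells added (exact permutation test, p = 0.0571) and 2.61 points with the letters A to C as a replicate block (p = 0.25, the smallest that 3 pairs allow). It ranged from 2.33 to 3.23 points when each mouse was left out, where no division can pass the threshold. The letters name different animals and pair nothing. With them as a block the age fit called 103 genes in place of 51. It called 141 without a filter on low counts, 31 at equal totals and 5 to 41 with a mouse left out. The mature-marker fit, with 55 calls, gave 26 with DESeq2, 21 without a filter, 6 at equal totals and 29 with no replicate block. The cDC1 against cDC2 fit, with 141 calls, gave 51 with DESeq2, 46 at equal totals, 67 with no replicate block, 68 with marker calls at 2000 UMIs, 51 with at least 3 list genes and 28 to 208 with a mouse left out, the lowest without Young A (28), and 54 when Young C was left out. With at least 3 genes or at least 1 gene of a list the class shares were 3.40% or 37.2% for maturation, 10.1% or 34.95% for cDC1 and 7.91% or 54.3% for cDC2, and with at least 1 gene that for pDC was 23.5%. At 2000 UMIs the cDC1 and cDC2 shares were 8.46% and 19.3%, and that for maturation was 5.92% in place of 11.9%, a move within the SD of 7.70 between mice. Equal totals and thinning remove counts; the cause of the other changes was not tested. The mature-marker fit was not run at 2000 UMIs, with 3 list genes or with Young A or C left out (1 mouse would remain). The fits without macrophage or T and NK cell genes and with at least 2 cells per sum were chosen after seeing the data, and the last called 48 genes. Depth limits the aged comparison to 109745 UMIs in 2 mice.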
